A study of Arabidopsis thaliana with 12 samples.

Results

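Genes for the proteins of the cytosolic ribosome were followed in Arabidopsis thaliana seedlings with and without an inducible form of the transcription factor LATERAL ORGAN BOUNDARIES (LOB). The list held 60 genes, given by locus, of 46 protein families. Of these, 29 genes were measured on a probe set that the platform annotation assigned to that gene alone, 20 for proteins of the large subunit and 9 for proteins of the small subunit. They stood among 13286 genes with such a probe set in the whole series. Each of the 29 had exactly 1 such probe set, so no choice between probe sets was needed. Another 10 listed genes were covered only by 9 probe sets shared with further genes, and 21 had no probe set named here.

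Total RNA of whole seedlings, 9 days old and all of the Col-0 background, had been hybridised to 12 one-colour Affymetrix arrays, 3 per group. The groups were 35S:LOB-GR seedlings given dexamethasone (35S:LOB-GR DEX), 35S:LOB-GR seedlings given medium alone (35S:LOB-GR mock), wild-type seedlings given dexamethasone (Col DEX) and wild-type seedlings given medium alone (Col mock). In the 35S:LOB-GR plants the constitutive 35S promoter drives LOB fused to the glucocorticoid receptor, so the fusion is made in most cells and not only at the organ boundaries where LOB is normally active. Dexamethasone (DEX), a synthetic glucocorticoid, lets such a fusion enter the nucleus. It was given at 5 µM for 4 h, and the mock seedlings were kept in the same medium without it. The labels call the 3 arrays of a group biological replicates and do not say whether 35S:LOB-GR was 1 line or several. They give no sowing, harvest or hybridisation batch, so a batch that followed genotype cannot be told apart from genotype.

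The cytosolic ribosome of plants is built from ribosomal RNA and a large set of proteins, most of them encoded by several near-identical paralogous genes. The large subunit joins amino acids and carries the acidic stalk that recruits elongation factors, and the small subunit binds the mRNA and decodes it. Ribosomal protein transcripts are abundant and are known to be highest in growing and dividing tissue. In Arabidopsis, mutants in some of these genes have altered leaf polarity or pointed first leaves.

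Expression was given on the log2 scale, with 1 value for each probe set on each array. Values ranged from 2.71 to 14.14 over the series, and array medians lay between 5.88 and 5.97. Correlations between arrays of 1 group were at least 0.992 over all probe sets. DEX in 35S:LOB-GR seedlings gave 2267 called probe sets of 22746, 904 of them higher, and DEX in Col gave 13. Under DEX the genotypes differed at 4880 probe sets, 2665 of them higher in 35S:LOB-GR, and under mock at 2470, 1310 of them higher. A call is an adjusted p under 0.05 in limma's moderated test, with Benjamini-Hochberg adjustment over all 22746 probe sets. No probe set was named as LOB, so its transcript was not analysed here. The leaf marker RCA, the activase of the carbon-fixing enzyme Rubisco, had 13.57 to 13.86 on all 12 arrays, whereas the root hair expansins EXPA7 and EXPA18 lay at 4.73 to 5.53, under the array medians. None of these 3 markers, the only ones measured of 6 for leaf and 7 for root, was called in any comparison. At an unadjusted limma p under 0.05, RCA was lower in 35S:LOB-GR under DEX, with a log2 change of -0.18 and no overlap of the arrays. At that threshold 1 of the 2 root markers was lower with DEX in Col and 1 was lower in 35S:LOB-GR under mock. In the difference of the responses to DEX, 1 was higher.

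The ribosomal protein transcripts were bright. The mean level of the 29 genes ranged from 7.75 to 12.85 with a median of 12.06, against a median of 5.93 over all probe sets, and 27 of the 29 lay at 10 or above. Only 1279 of all probe sets were that bright. The dimmest were 2 of the 3 genes for P0, the protein that anchors the acidic stalk. Probe sets differ in how strongly they bind, so these levels are not ranked against one another.

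Every one of the 29 genes had its highest group mean in 35S:LOB-GR DEX seedlings. The lowest mean fell in Col mock for 16 genes, in Col DEX for 12 and in 35S:LOB-GR mock for 1. Of the 96 measured genes for other cytosolic ribosomal proteins, 86 were also highest in 35S:LOB-GR DEX, which was the highest group for 33.9% of all probe sets and for 41.6% of the probe sets at level 10 or above. The gaps were small. SDs within a group had medians of 0.10, 0.09, 0.07 and 0.07 in 35S:LOB-GR DEX, 35S:LOB-GR mock, Col DEX and Col mock.

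Array by array, the genes moved largely as a block. With each gene centred on its mean of the 12 arrays, the median over the 29 genes was 0.05, 0.22 and 0.19 on the 35S:LOB-GR DEX arrays and 0.04, 0.08 and -0.08 on the 35S:LOB-GR mock arrays. It was -0.02, -0.11 and -0.08 on the Col DEX arrays and -0.10, -0.07 and -0.09 on the Col mock arrays. The lowest 35S:LOB-GR DEX array, replicate 1, thus lay within the range of the 35S:LOB-GR mock arrays and above every Col array. On that array 25 of the 29 genes were under their own group mean, and on 35S:LOB-GR mock replicate 3 it was 24. Among the Col DEX arrays, 25 genes were above the group mean on replicate 1 and 25 were below it on replicate 2. Replicates of a group therefore differed by a shift shared over the family, and the 29 genes are not independent of one another.

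**Figure D1:**
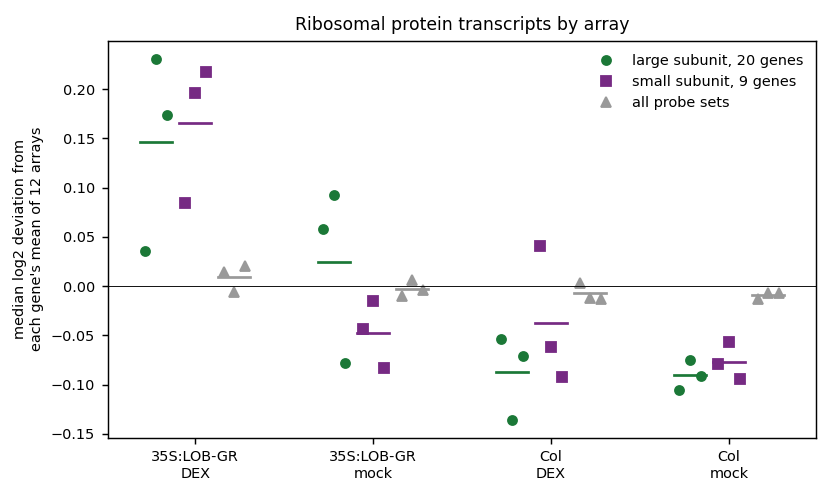
Median log2 deviation of the listed ribosomal protein genes from each gene's mean of 12 arrays, by group, for the large subunit (20 genes), the small subunit (9 genes) and all 22746 probe sets. Each point is 1 array and each bar the mean of 3 arrays. The mean of the 35S:LOB-GR DEX arrays is highest for both subunits; its replicate 1 is lowest and, for the large subunit, lies under 2 of the 35S:LOB-GR mock arrays, while the medians over all probe sets stay near 0.

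The subunits showed the same order of groups at the top and differed below it. For the large subunit the array medians averaged 0.15 ± 0.10 in 35S:LOB-GR DEX, 0.02 ± 0.09 in 35S:LOB-GR mock, -0.09 ± 0.04 in Col DEX and -0.09 ± 0.02 in Col mock (SD, n = 3 each). For the small subunit they averaged 0.17 ± 0.07, -0.05 ± 0.03, -0.04 ± 0.07 and -0.08 ± 0.02 in those groups (SD, n = 3 each). On the 35S:LOB-GR mock arrays 2 of 3 large-subunit medians were above 0, whereas all 3 small-subunit medians were below 0. Whether the subunits differed was not tested, since the genes of each share their arrays.

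DEX against mock in 35S:LOB-GR seedlings answers which transcripts had shifted after 4 h of DEX. It holds both the entry of the fusion protein into the nucleus and any effect of the hormone itself. All 29 ribosomal protein genes had a positive log2 change, with a median of 0.13 and a range of 0.03 to 0.36. The median over all probe sets was 0.02 and over those at level 10 or above 0.01, with 54.5% and 53.7% of them above 0. Of the 29 genes 2 rose and none fell, while 9.97% of all probe sets were called, 3.97% higher and 5.99% lower. Another 3 genes were higher at an unadjusted p under 0.05 only. With the 2 called genes these are 5 of 29, against 2447 of 22746 probe sets and 141 of the 1279 at level 10 or above. The large subunit had a median of 0.10 with 1 of 20 genes called, and the small subunit a median of 0.18 with 1 of 9 called. In the 96 other cytosolic ribosomal protein genes the order was reversed, with 0.15 in the large and 0.13 in the small subunit. The arrays of the DEX and mock groups did not overlap for 7 genes, all higher with DEX, which is 24.1% against 11.8% of all probe sets and 13.1% of those at level 10 or above. In whole seedlings, a change in the number of cells of a type and a change in RNA per cell cannot be told apart.

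The larger of the called rises was in RPP0 (AT3G11250), 1 of 3 genes for the stalk protein P0. It had 9.34, 9.28 and 9.28 on the 35S:LOB-GR DEX arrays and 9.02, 8.97 and 8.84 on the 35S:LOB-GR mock arrays, with 8.94, 8.89 and 8.92 in Col DEX and 8.87, 8.84 and 8.89 in Col mock. The 3 arrays of induced seedlings stood above all 9 others, which lay within 0.18 of one another. The change with DEX in 35S:LOB-GR was 0.36 ± 0.08 (SE), a fold of 1.28, with a limma adjusted p of 0.0075. Fitting only the 6 arrays compared gave an adjusted p of 0.0515, the highest over 21 alternatives, which reached down to 0.0033.

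RPS14 (AT2G36160), for a protein of the small subunit's platform, had 12.12, 12.05 and 12.04 in 35S:LOB-GR DEX and 11.78, 11.86 and 11.72 in 35S:LOB-GR mock. Its Col DEX values were 11.98, 11.79 and 11.78, and its Col mock values 11.69, 11.74 and 11.68. The groups did not overlap between DEX and mock in either genotype. The change was 0.28 ± 0.08 in 35S:LOB-GR, with a limma adjusted p of 0.042, and 0.15 ± 0.08 in Col, with 0.48. The call in 35S:LOB-GR was lost under 16 of 21 alternatives, whose adjusted p reached 0.134, among them leaving out any array except Col DEX replicate 1.

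The count of called genes rested on single arrays. It fell to 1, RPP0 (AT3G11250), without any of 10 of the 12 arrays. Without Col DEX replicate 1 the called genes were again RPP0 (AT3G11250) and RPS14 (AT2G36160). Without 35S:LOB-GR DEX replicate 1 they were RPP0 (AT3G11250) and RPS7 (AT1G48830), the second with a change of 0.33 ± 0.09 and a limma adjusted p of 0.0282. The number of genes with a positive change was 27 without 35S:LOB-GR DEX replicate 2 or 3, 25 without 35S:LOB-GR mock replicate 3 and 29 without any other array. Over the leave-one-out fits the median ranged from 0.07 to 0.18.

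Among the genes not called with DEX in 35S:LOB-GR, RPL28 (AT2G19730) had a change of 0.22 ± 0.11, RPS7 (AT1G48830) 0.21 ± 0.10 and RPS12 (AT1G15930) 0.21 ± 0.08. The smallest changes were 0.03 ± 0.09 in RPL6 (AT1G18540) and 0.03 ± 0.08 in RPL17 (AT1G27400), a protein that lines the exit tunnel of the nascent chain. The other exit-tunnel proteins were RPL4 (AT3G09630) at 0.06 ± 0.09 and RPL35 (AT3G09500) at 0.14 ± 0.10.

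DEX in wild type, the test of what the hormone does without the transgene, gave no called change in the family. None of the 29 genes was called by limma, while 0.0132% of all probe sets were called higher and 0.044% lower. None had an unadjusted p under 0.05, against 2886 of 22746 probe sets. There were 17 positive and 12 negative changes with a median of 0.03, while 51.7% of all probe sets were above 0. The highest was 0.15 ± 0.08 in RPS14 (AT2G36160) and the lowest -0.15 ± 0.10 in RPL35 (AT3G09500). The DEX arrays lay wholly above the mock arrays for 4 genes, 13.8% against 10.3% of all probe sets and 14.3% of those at level 10 or above. These were RPL17 (AT1G27400), RPL10a (AT2G27530), RPS14 (AT2G36160) and RPP0 (AT3G11250). They lay wholly below for 1 gene, 3.4% against 10.6% of all probe sets. That gene, RPL35 (AT3G09500), had 11.47, 11.44 and 11.47 in Col DEX and 11.58, 11.75 and 11.51 in Col mock. It had 11.55, 11.86 and 11.69 in 35S:LOB-GR DEX and 11.67, 11.54 and 11.48 in 35S:LOB-GR mock, which overlapped.

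The responses of the 2 genotypes to DEX were then compared directly. Their difference was positive for 26 of 29 genes, with a median of 0.13 and a range of -0.06 to 0.32. Over all probe sets the median was 0.01, and 53% were above 0. None of the 29 was called by limma, while 4.77% of all probe sets were called, 1.82% higher and 2.95% lower. An unadjusted p under 0.05 was found for 3778 of 22746 probe sets and for 1 of the 29 genes. That gene was RPP0 (AT3G11250), with a difference of 0.30 ± 0.11 and an adjusted p of 0.156. The highest difference was 0.32 ± 0.15 in RPL28 (AT2G19730), with an adjusted p of 0.308, and the lowest -0.06 ± 0.11 in RPL17 (AT1G27400). A larger response in 35S:LOB-GR than in Col was thus not shown for any single gene. The number of positive differences fell to 21 without 35S:LOB-GR mock replicate 3 and was 23 to 29 over the other leave-one-out fits.

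The comparison of genotypes under DEX sets the induced seedlings against wild type given the same hormone. It shares the 35S:LOB-GR DEX arrays with the test of DEX against mock in 35S:LOB-GR, and a high induced array raises both. All 29 genes were again above 0, with a median of 0.21, a fold of 1.16, and a range of 0.05 to 0.45. The median was 0.02 over all probe sets and 0.09 over those at level 10 or above, with 53.7% and 61.5% of them above 0. Of the 29 genes 7 were higher and none lower, which is 24.1% against 11.7% of all probe sets called higher and 18.4% of those at level 10 or above. Another 9.74% of all probe sets were called lower. At an unadjusted p under 0.05, 18 of the 29 genes were higher, against 4149 of 22746 probe sets and 393 of the 1279 at level 10 or above. The arrays of 35S:LOB-GR and Col did not overlap for 19 genes, all higher in 35S:LOB-GR, 65.5% against 18.5% of all probe sets and 33.6% of those at level 10 or above. Another 15.3% of all probe sets, and 24.6% of those at level 10 or above, had 35S:LOB-GR wholly below Col.

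**Figure D2:**
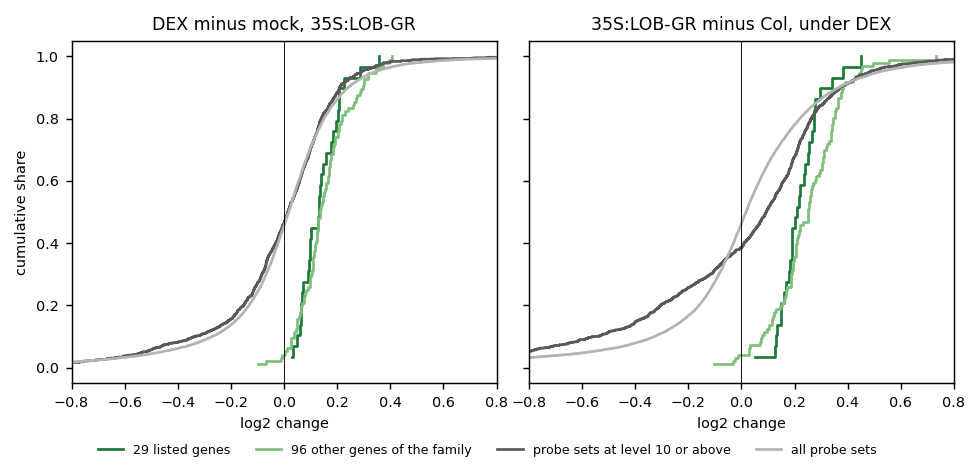
Cumulative share of genes or probe sets by log2 change, for DEX against mock in 35S:LOB-GR (left) and 35S:LOB-GR against Col under DEX (right). The curves of the 29 listed and 96 other ribosomal protein genes are narrow and lie almost wholly right of 0, while those of the bright and of all probe sets are wide and cross 0; the axis is cut at 0.8 on either side.

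The called genes belonged to both subunits, with 5 of 20 in the large subunit, where the median was 0.21, and 2 of 9 in the small subunit, where it was 0.22. RPL28 (AT2G19730), a large-subunit protein of eukaryotes, had 12.79, 13.15 and 12.87 in 35S:LOB-GR DEX against 12.45, 12.44 and 12.58 in Col DEX. All induced arrays lay above all Col DEX arrays. The change was 0.45 ± 0.11, a fold of 1.37, with a limma adjusted p of 0.0067. RPL14 (AT2G20450), also of the large subunit, had 10.36, 10.49 and 10.41 in 35S:LOB-GR DEX against 10.17, 10.03 and 10.04 in Col DEX. The groups did not overlap, and the change was 0.34 ± 0.08 with an adjusted p of 0.0074. RPP0 (AT3G11250), with the values given above, was higher by 0.38 ± 0.08, with an adjusted p of 0.0023. These 3 genes kept their call under each of the 21 alternatives, with adjusted p values up to 0.0369, 0.0378 and 0.0131.

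The other 4 calls were weaker. RPS14 (AT3G52580) had 11.23, 11.42 and 11.38 in 35S:LOB-GR DEX and 11.16, 10.99 and 10.99 in Col DEX, a change of 0.30 ± 0.10 with a limma adjusted p of 0.0468. RPL17 (AT1G27400) had 11.26, 11.42 and 11.44 in 35S:LOB-GR DEX and 11.12, 11.11 and 11.08 in Col DEX, a change of 0.27 ± 0.08 with an adjusted p of 0.0243. RPL7a (AT3G62870), of the large subunit, had 12.32, 12.40 and 12.41 in 35S:LOB-GR DEX and 12.16, 12.03 and 12.14 in Col DEX, a change of 0.26 ± 0.09 with an adjusted p of 0.0433. In each of these genes the lowest 35S:LOB-GR DEX array was replicate 1, and it still lay above all Col DEX arrays. RPS4 (AT2G17360), of the small subunit, had 10.48, 10.53 and 10.62 in 35S:LOB-GR DEX and 10.32, 10.38 and 10.17 in Col DEX, a change of 0.25 ± 0.09 with an adjusted p of 0.048. It was the smallest of the called changes and is named after its values were seen. Of 21 alternatives, the call was lost under 7 for RPL17 (AT1G27400), 11 for RPL7a (AT3G62870), 11 for RPS14 (AT3G52580) and 17 for RPS4 (AT2G17360).

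**Figure D3:**
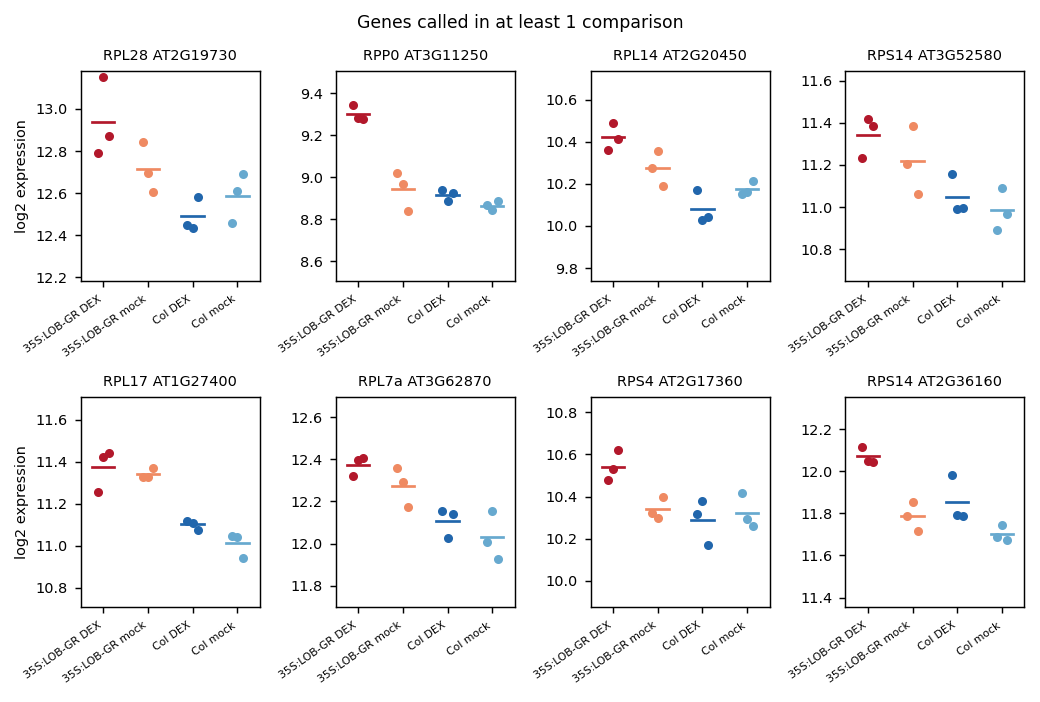
Log2 expression of the 8 listed genes called in at least 1 comparison, with 3 arrays (points) and their mean (bar) per group and a window of 1 log2 unit in each panel. The 35S:LOB-GR DEX arrays stand above all Col DEX arrays in every panel, and RPL17 (AT1G27400) is as high in 35S:LOB-GR mock as in 35S:LOB-GR DEX.

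The number of called genes depended on single arrays here too. It was 13 without 35S:LOB-GR DEX replicate 1, the array on which most of the family was low, and the median change was then 0.28. It was 3 without 35S:LOB-GR DEX replicate 2 or 3 or without Col DEX replicate 2 or 3, and 4 without Col mock replicate 1. All 29 changes stayed above 0 in every one of these fits, and the median did not fall under 0.19.

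Among the 22 genes not called, the changes nearest to the called ones were 0.28 ± 0.12 in RPL34 (AT1G26880) and 0.27 ± 0.10 in RPL12 (AT2G37190), which binds at the base of the stalk beside P0. RPP2 (AT2G27710), an acidic protein of the stalk itself, had 0.20 ± 0.09. RPS2 (AT2G41840), at the entry of the mRNA channel, had 0.13 ± 0.09, and RPS19 (AT3G02080), of the head of the small subunit, 0.13 ± 0.09. The smallest change was 0.05 ± 0.08 in RPL10a (AT2G27530), known as PIGGYBACK1, whose mutants have altered leaf polarity. PIGGYBACK1 had 11.98, 11.98 and 12.10 in 35S:LOB-GR DEX, 11.87, 11.98 and 11.80 in 35S:LOB-GR mock, 12.05, 11.90 and 11.96 in Col DEX and 11.83, 11.85 and 11.86 in Col mock. Its DEX arrays overlapped between genotypes, and in Col, but not in 35S:LOB-GR, they lay wholly above the mock arrays.

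**Figure D4:**
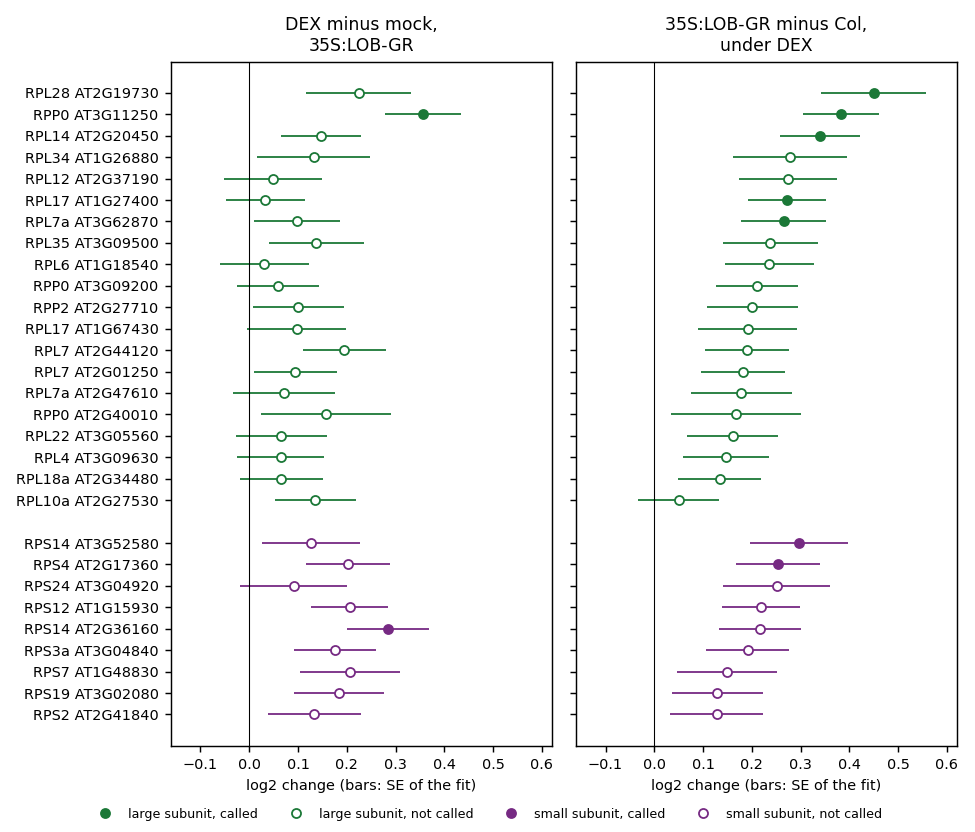
Log2 change of each of the 29 genes for DEX against mock in 35S:LOB-GR (left) and for 35S:LOB-GR against Col under DEX (right), with bars of 1 SE of the fit. Filled points are called at an adjusted p under 0.05; large-subunit genes are above small-subunit genes, each ordered by the right panel. All points lie right of 0 in both panels, which share the 35S:LOB-GR DEX arrays.

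The comparison of genotypes under mock shows how the seedlings differed without hormone. Of the 29 genes 27 were above 0, with a median of 0.08 and a range of -0.05 to 0.33. The median was 0.00 over all probe sets and 0.06 over those at level 10 or above. Above 0 were 51.1% and 60.5% of them. Only RPL17 (AT1G27400) was called by limma, higher in 35S:LOB-GR. This is 3.4%, against 5.76% of all probe sets called higher and 10.2% of those at level 10 or above. Another 5.1% of all probe sets were called lower. At an unadjusted p under 0.05, 4 of the 29 genes were higher, against 2880 of 22746 probe sets and 267 of the 1279 at level 10 or above. RPL17 (AT1G27400) had 11.32, 11.32 and 11.37 in 35S:LOB-GR mock and 11.05, 11.04 and 10.94 in Col mock. Its groups stood apart with narrow spreads, and the change was 0.33 ± 0.08, a fold of 1.26, with an adjusted p of 0.0147. Without Col mock replicate 3 the adjusted p was 0.063, and the count of called genes was then 0. The 35S:LOB-GR arrays lay wholly above the Col arrays for 4 genes, 13.8% against 14.8% of all probe sets and 25.9% of those at level 10 or above. They lay wholly below for none of the 29 genes, against 13% of all probe sets.

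Another 3 genes did not overlap between the genotypes under mock. RPP0 (AT3G09200) had 12.90, 13.02 and 12.90 in 35S:LOB-GR mock and 12.66, 12.76 and 12.62 in Col mock, a change of 0.26 ± 0.08 with a limma adjusted p of 0.057. RPL7a (AT3G62870) had a change of 0.24 ± 0.09 with 0.095, and RPL17 (AT1G67430) one of 0.13 ± 0.10 with 0.53. All are large-subunit genes. The large subunit had a median of 0.11 under mock and the small subunit one of 0.05. In the 96 other cytosolic ribosomal protein genes the medians were 0.09 and 0.10. There 35S:LOB-GR lay wholly above Col for 12 of 60 large-subunit and 8 of 36 small-subunit genes. These are 20% and 22.2%, against 14.8% of all probe sets and 25.9% of those at level 10 or above. It lay wholly below Col for 1 gene of each subunit.

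Paralogues were compared pairwise in the 5 families with more than 1 measured gene, which gave 7 pairs. For each array the log2 difference between the paralogues was taken, and its genotype effect was tested with an exact permutation test, two-sided, of the genotype labels within each treatment. The smallest p it can give is 0.005. No pair differed after Benjamini-Hochberg adjustment over the 7 pairs, and 2 had a raw p under 0.05. Without 35S:LOB-GR DEX replicate 3, 1 pair passed the adjusted threshold.

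RPL17 was 1 of these 2 families. Over both treatments the genotype effect was greater in AT1G27400 than in AT1G67430 by 0.14 ± 0.05 (SE), with an exact p of 0.025 and an adjusted p of 0.088. Under DEX the genotype effect was 0.27 in AT1G27400 and 0.19 in AT1G67430, and under mock it was 0.33 and 0.13. AT1G67430 had 12.39, 12.77 and 12.80 in 35S:LOB-GR DEX, 12.60, 12.52 and 12.54 in 35S:LOB-GR mock, 12.42, 12.46 and 12.50 in Col DEX and 12.47, 12.40 and 12.41 in Col mock. Its induced replicate 1 lay under every 35S:LOB-GR mock array, and without that array its genotype effect under DEX was called, with a limma adjusted p of 0.0112.

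RPL7a was the other. The genotype effect was smaller in AT2G47610 than in AT3G62870 by 0.13 ± 0.05, a difference of -0.13 with an exact p of 0.025 and an adjusted p of 0.088. AT2G47610 had 11.97, 12.26 and 12.32 in 35S:LOB-GR DEX, 12.17, 12.20 and 11.97 in 35S:LOB-GR mock, 12.03, 11.94 and 12.04 in Col DEX and 11.96, 12.15 and 11.98 in Col mock. Here too replicate 1 of the induced seedlings was low, and all groups overlapped. AT3G62870 had 12.36, 12.29 and 12.17 in 35S:LOB-GR mock and 12.01, 12.16 and 11.93 in Col mock, which did not.

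The 3 genes for P0 gave the widest spread of responses to DEX in 35S:LOB-GR. The change was 0.36 ± 0.08 in AT3G11250, 0.16 ± 0.13 in AT2G40010 and 0.06 ± 0.08 in AT3G09200. The change in AT3G09200 minus that in AT3G11250 was -0.30 ± 0.08, with an exact p of 0.1, the smallest that 3 against 3 arrays allow. AT3G09200 had 13.02, 12.90 and 13.08 in 35S:LOB-GR DEX, 12.90, 13.02 and 12.90 in 35S:LOB-GR mock, 12.84, 12.78 and 12.75 in Col DEX and 12.66, 12.76 and 12.62 in Col mock. In that gene the genotypes stood apart under both treatments and the treatments overlapped within 35S:LOB-GR, whereas the induced arrays of AT3G11250 stood clear of all others. AT2G40010, the dimmest of the 29 genes, had 7.69, 8.03 and 8.01 in 35S:LOB-GR DEX, 7.81, 8.01 and 7.44 in 35S:LOB-GR mock, 7.85, 7.61 and 7.77 in Col DEX and 7.49, 7.67 and 7.62 in Col mock, and its groups overlapped in every comparison. Averaged over treatments the genotype effect did not separate the 3 pairs of P0 genes, whose exact p values ran from 0.49 to 0.92.

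The genotype effect did not separate the remaining pairs either. The genotype effect in RPS14 was smaller in AT2G36160 than in AT3G52580, a difference of -0.11 ± 0.05 with an exact p of 0.065 and an adjusted p of 0.152. In RPL7 it was the same in AT2G01250 and AT2G44120 to within 0.00 ± 0.04, with an exact p of 0.93. The change with DEX in 35S:LOB-GR was 0.09 in AT2G01250 and 0.20 in AT2G44120. Their difference was -0.10 ± 0.02, with an exact p of 0.1, the smallest that 3 against 3 arrays allow. In Col that difference was -0.09 ± 0.07, with an exact p of 0.3. AT2G44120 had 11.95, 12.16 and 12.06 in 35S:LOB-GR DEX and 11.91, 11.93 and 11.75 in 35S:LOB-GR mock, which did not overlap, and AT2G01250 had 12.12, 12.31 and 12.26 against 12.16, 12.21 and 12.03, which did.

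**Figure D5:**
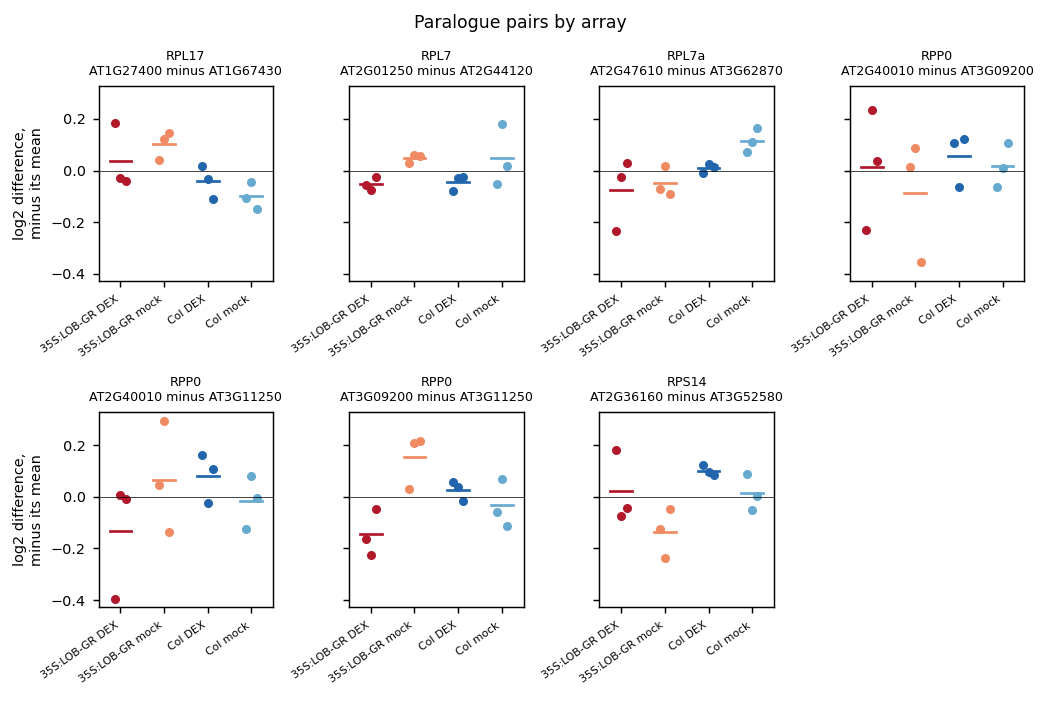
Log2 difference between paralogues on each array, minus its mean over the 12 arrays, for the 7 pairs, with 3 arrays (points) and their mean (bar) per group. In RPL17 the 35S:LOB-GR mock arrays lie above all Col arrays, in RPL7a the Col mock arrays lie highest, and in RPP0 the mean of AT3G09200 minus AT3G11250 is lowest in 35S:LOB-GR DEX.

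Of the 29 genes, 28 belong to families with a further measured gene, listed or not. Under DEX every measured paralogue in these families was above 0 between the genotypes, called or not, and sizes varied. PIGGYBACK1 had a genotype change of 0.05, while the other RPL10a genes, AT1G08360 and AT5G22440, had 0.27 and 0.32, 1 of them called. RPS2 (AT2G41840) had 0.13, against 0.34 in AT3G57490, which was called, and RPL4 (AT3G09630) had 0.15, against 0.32 in AT5G02870, also called. In the other direction, RPS3a (AT3G04840) had 0.19 and AT4G34670 had 0.03. RPL28 was called in both of its genes, with 0.45 in AT2G19730 and 0.34 in AT4G29410. These within-family gaps were not tested.

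Some listed genes lie beside another ribosomal protein gene in the gene order of the RefSeq assembly TAIR10.1. RPL28 (AT2G19730) is followed directly by RPL31 (AT2G19740), and the genotype changes under DEX were 0.45 in RPL28 and 0.34 in RPL31, the second with a limma adjusted p of 0.087. RPP2 (AT2G27710) is followed by RPP2 (AT2G27720), with changes of 0.20 and 0.13, neither called. Both listed RPS14 genes, AT2G36160 and AT3G52580, stand next to a gene for RPL40, and neither RPL40 gene was measured on a probe set of its own.

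The 10 listed genes on shared probe sets were kept apart, because their signal cannot be assigned to a gene. All 9 shared probe sets lay above 0 both with DEX in 35S:LOB-GR and between the genotypes under DEX. The probe set of RPS16 (AT2G09990), shared by 2 genes, was higher in 35S:LOB-GR under DEX by 0.26 ± 0.08, with a limma adjusted p of 0.038. The probe set of RPL41 (AT1G56045), the smallest ribosomal protein, was shared by 5 genes and behaved unlike the rest. It had 10.75, 11.02 and 10.83 in 35S:LOB-GR DEX, 10.49, 10.69 and 10.30 in 35S:LOB-GR mock, 10.45, 10.47 and 10.44 in Col DEX and 10.98, 11.06 and 10.70 in Col mock. Induced 35S:LOB-GR seedlings and mock-treated wild type were high, and the other groups were low. The genotype change was 0.41 ± 0.12 under DEX, with an adjusted p of 0.0178, and -0.42 ± 0.12 under mock, with an adjusted p of 0.0299. The probe sets of RPS2 (AT1G58380), RPL6 (AT1G74060) and RPL35a (AT1G41880) had genotype changes under DEX of 0.20, 0.24 and 0.24, none called. That of RPL9 (AT1G33140), known as PIGGYBACK2, had 0.15 under DEX and 0.27 under mock, with adjusted p values of 0.273 and 0.059.

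The 96 measured genes of 161 unlisted cytosolic ribosomal proteins were set beside the 29 listed ones. With DEX in 35S:LOB-GR the median was 0.13 in the listed and 0.13 in the other genes. Of the 96 other genes 8 rose and none fell, 8.3% against 3.97% of all probe sets called higher and 2.89% of those at level 10 or above. The highest were RPS9 (AT5G39850) at 0.41 ± 0.10 and RPL13a (AT4G13170) at 0.40 ± 0.08, with limma adjusted p values of 0.021 and 0.0059. Under DEX 7 of the 29 listed and 37 of the 96 other genes were higher in 35S:LOB-GR and none was lower, with medians of 0.21 and 0.25. The shares were 24.1% and 38.5%, against 11.7% of all probe sets called higher and 18.4% of those at level 10 or above. The highest were RPS27a (AT1G23410), a protein made as a fusion with ubiquitin, at 0.73 ± 0.15, RPL27 (AT2G32220) at 0.55 ± 0.13 and RPS27 (AT2G45710) at 0.50 ± 0.09, with adjusted p values of 0.0018, 0.0076 and 0.0011. Under mock 3 of 96 were higher, 3.1% against 5.76% of all probe sets and 10.2% of those at level 10 or above. They were RPS27 (AT2G45710), RPS21 (AT3G53890) and RPL4 (AT5G02870), at 0.31, 0.30 and 0.29. None of the 96 was called with DEX in Col or in the difference of responses, where 5 and 9 had an unadjusted p under 0.05. Of all 22746 probe sets, 2886 and 3778 had one. In all, 44 of 125 cytosolic ribosomal protein genes were higher in 35S:LOB-GR under DEX, 35.2% against 11.7% of all probe sets, and none was lower.

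Some genes for ribosome assembly were also higher in 35S:LOB-GR. Of 28 listed ribosome biogenesis genes 9 were measured, all above 0 under both treatments, with medians of 0.37 under DEX and 0.26 under mock. Under DEX 3 were called higher by limma, 33.3% of the 9 against 11.7% of all probe sets. These were BRX1-1 (AT3G15460), for large-subunit assembly, at 0.52, NOP58-2 (AT3G05060), a core protein of methylation-guiding nucleolar particles, at 0.46, and NHP2 (AT5G08180), of pseudouridine-guiding particles, at 0.37. Their adjusted p values were 0.0032, 0.028 and 0.0091. PES (AT5G14520), for processing of large-subunit rRNA, was called under mock at 0.30 with 0.040. It was 1 of the 9 genes, 11.1% against 5.76% of all probe sets called higher. With DEX in 35S:LOB-GR none of the 9 was called, and the median was 0.06. There 1 of the 9 had an unadjusted p under 0.05, against 4931 of 22746 probe sets.

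Few genes of the plastid ribosome and of translation itself were measured. Of 32 nuclear genes for ribosomal proteins of the plastid, 7 were measured and none was called in any comparison, with a median of 0.08 between the genotypes under DEX and 0.03 with DEX in 35S:LOB-GR. None of the 7 had an unadjusted p under 0.05. Of 27 translation factor genes 3 were measured. For the elongation factor subunit eEF1Balpha, AT5G12110 was lower in 35S:LOB-GR under DEX by a log2 change of -0.87, with a limma adjusted p of 0.0006, and AT5G19510 was higher by 0.25, with 0.043. The third measured factor had 0.09 and was not called. Called higher and lower were thus 33.3% each, against 11.7% and 9.74% of all probe sets. In AT5G12110 the change with DEX was 0.01 in 35S:LOB-GR and 0.56 in Col. Its genotype change under mock was -0.32, and none of these 3 changes was called. Of 9 listed genes of the TOR pathway, which regulates ribosome production, RAPTOR1A and RAPTOR1B were measured, and neither was called in any comparison. Between the genotypes their changes were 0.15 and 0.07 under DEX and 0.28 and 0.25 under mock. DEX against mock gave 0.21 and 0.11 in 35S:LOB-GR and 0.35 and 0.28 in Col. In Col the DEX arrays of both genes lay wholly above the mock arrays, as did those of 10.3% of all probe sets. Under mock the 35S:LOB-GR arrays lay wholly above the Col arrays for RAPTOR1A, as they did for 14.8% of all probe sets.

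Ribosomal protein levels are tied to cell division in plants, so its markers are given beside them. Of 14 such genes only AUR1 (AT4G32830), a mitotic kinase, was measured. It had 6.96, 6.97 and 6.88 in 35S:LOB-GR DEX, 7.05, 6.98 and 7.18 in 35S:LOB-GR mock, 7.35, 7.54 and 7.25 in Col DEX and 7.69, 7.73 and 7.40 in Col mock. It was lower in 35S:LOB-GR under both treatments, by log2 changes of -0.45 under DEX and -0.54 under mock, with limma adjusted p values of 0.0063 and 0.0035. AUR1 thus ran opposite to the ribosomal protein genes between the genotypes, and its part in their levels was not tested.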

How the data were processed

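The authors deposited 1 log2 value for each probe set on each array. RMA is the tool that the submitters' processing notes name; the sources used here give neither its version nor a genome build. This method sets all arrays to 1 distribution, which would reduce a shift of most transcripts in 1 direction. The table held 22810 probe sets, of which 64 controls were left out. Genes were named from the platform annotation, which gave 13513 probe sets a single gene, 503 more than 1 and 8730 no gene. Family names and subunits of the listed loci follow the common Arabidopsis nomenclature and are not in the annotation. Sequences were not used here.

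All 12 arrays entered 1 limma fit of group means (version 3.58.1, R 4.3.3, eBayes, 8 residual and 6.86 prior degrees of freedom), with no replicate block. Each genotype was tested for DEX against mock, the 2 responses against each other, and 35S:LOB-GR seedlings against wild type under DEX and under mock. Contrasts share arrays, so their values stand side by side without a test of overlap. Log2 changes are given with the SE of the fit. Paralogue pairs were compared as described beside them, in Python 3.11.15. The precision is limited by 3 arrays a group.

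The 60 genes, the other lists and the tests were chosen with earlier results of these data known. The genes named were up to 6 called genes per comparison and direction with the largest change, all members of families with several measured genes, the extremes where none was called, and up to 3 called genes of each other list. Genes named beyond this were chosen after their values were seen. A gene that the rule names is not reported here. The script was first checked on simulated data. Alternatives covered normalization, centring, a filter on dim probe sets, the spread, array weights, the arrays fitted, a replicate block, the threshold and leaving out each array.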

Additional observations from a re-analysis of the deposited data

Results flagged for a closer look

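The probe set of RPL41 (AT1G56045), shared by 5 genes, differed between the genotypes in its response to DEX. The change with DEX was 0.38 ± 0.12 in 35S:LOB-GR, with a limma adjusted p of 0.0534, and -0.46 ± 0.12 in Col, with an adjusted p of 0.121. The difference of the responses was 0.83 ± 0.16 with an adjusted p of 0.0074, and it stayed called under each of 19 alternatives, between 0.74 and 0.94 with adjusted p values of 0.0017 to 0.0246. In 35S:LOB-GR all 3 DEX arrays lay above all 3 mock arrays, and in Col all 3 DEX arrays lay below all 3 mock arrays. None of the 29 genes measured on a probe set of their own was called in this difference. Which of the 5 genes gave the signal cannot be told apart.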

How the results depend on the processing

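No result reversed its direction where it was called. The side of the threshold held in 1254 of 1347 single-gene values, while a call was lost in 74 and gained in 19. Some changes that were not called did change sign. RPL17 (AT1G27400) ran from -0.001 to 0.092 with DEX in 35S:LOB-GR, and RPP0 (AT2G40010) from -0.15 to 0.13 in the difference of responses. Of 328 counts and medians, 272 stayed close to their values. The listed genes called with DEX in 35S:LOB-GR, 2 in all, numbered 1 with the dimmest probe sets left out, with array weights, with a replicate block and at an adjusted p under 0.01, and 0 with only the arrays compared fitted. Those between the genotypes under DEX, 7 in all, numbered 13 with array weights, 4 with a replicate block and 3 both with only the arrays compared and at an adjusted p under 0.01. Under mock the 1 called gene became 2 after repeated quantile normalization, with trended and robust spread, with array weights and with the shared probe sets added, an alternative chosen after seeing the data, and 0 at the stricter threshold. With the shared probe sets added, 1 was called in the difference of responses, that of RPL41. Over leave-one-out fits these counts ran from 1 to 2, 3 to 13 and 0 to 1, and the pairs of paralogues that differed from 0 to 1. The median change between the genotypes under DEX ran from 0.19 to 0.28.

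Over all probe sets, the 2267 calls with DEX in 35S:LOB-GR became 1500 with only the arrays compared and 1299 at the stricter threshold, which left 474 in the difference of responses, 1308 under mock and 3018 under DEX. The 13 calls with DEX in Col became 32 without dim probe sets, 42 with trended spread, 399 with array weights, 407 with only the arrays compared, 8 with a replicate block, 2 at the stricter threshold and 2 to 141 over leave-one-out fits, with no listed gene called. It was 141 without 35S:LOB-GR DEX replicate 1, 69 without Col mock replicate 3, 20 to 24 without 35S:LOB-GR DEX or mock replicate 2 or 3, and 2 to 5 without any Col DEX array or Col mock replicate 1 or 2. Subtracting each array's median moved the share of higher calls from 39.9% to 53.0% with DEX in 35S:LOB-GR, where the median of all probe sets then lay at 0.06, and from 23.1% to 41.2% with DEX in Col. The replicate numbers showed no clear pairing of the samples. Same-numbered arrays deviated together with correlations of -0.23 to 0.19, over 0.1 in 2 of 18 pairs. For most arrays and groups, the closest match in the other group had a different number. The causes were not tested, apart from the fewer arrays and the stricter threshold. Signal over background was not given, so it is unknown what limit dimness sets.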
